A study of Procambarus virginalis and Procambarus fallax with 9 samples.

Results

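A set of 59 genes differed at least 10-fold in abundance between the abdominal muscles of 3 marbled crayfish of one clonal strain. They were taken from the 21773 gene models of the RNA-seq tables. The marbled crayfish, Procambarus virginalis, reproduces by parthenogenesis, and the animals used were those numbered 2, 6 and 7 of the Heidelberg laboratory strain, each giving 1 library of abdominal musculature and 1 of hepatopancreas. For comparison, abdominal musculature was profiled from 3 females, numbered 1, 3 and 4, of the sexually reproducing parent species Procambarus fallax, bought from an aquarium supply. The sample labels give no treatment, age, moult stage or sampling time for any animal, and the series description gives other numbers of individuals (6 P. virginalis and 2 P. fallax) than the sample titles do. No comparison in the set therefore had more than 3 animals on a side.

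Because all marbled crayfish descend from a single animal, animals of a laboratory strain carry nearly the same genome, and transcript differences between them have been studied as variation that inherited sequence does not readily supply. P. fallax animals, in contrast, are produced by mating and differ genetically from each other. The abdominal musculature is the bulk of the tail and drives the escape flip by fast contraction, and its RNA is dominated by a small number of contractile and energy-buffering transcripts. The hepatopancreas is the digestive gland and the main storage organ of decapods, and it releases digestive enzymes and takes up nutrients. Muscle samples of crustaceans can also carry epidermis, connective tissue, nerve and hemolymph cells. In such bulk samples, fewer cells of a type and less RNA per cell cannot be told apart. The files do not pair gene model IDs with gene names, so that neither the tissues nor other cell types could be checked against marker genes and no function is given here for any member.

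Membership was decided from measured values. Genes were first limited to those with a mean of 10 to below 1000 TPM, a unit of transcript abundance corrected for gene length and library size, over the 3 P. virginalis muscles and below 1000 TPM over the 3 hepatopancreas libraries, which left 1067 genes. TPM was then divided by the library median over the 2597 genes with at least 1 TPM in all 6 muscle libraries (scaled TPM), and genes were taken when the highest of the 3 P. virginalis muscles was at least 10 times the lowest. This held for 64 genes, which were 6.0% of the 1067, and 5 of them were left out because they also varied at least 10-fold in a hepatopancreas mean of at least 10 TPM. The spread among the 3 P. virginalis muscles is therefore given as a description without a test. The other 1008 genes within the same limits on the mean served as the comparison.

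The 6 muscle libraries held between 6001494 and 18661368 counts, the 3 hepatopancreas libraries between 12947418 and 67369392. In each muscle library the 10 most abundant genes took between 60.6% and 75.6% of all counts, and in the muscle of P. virginalis animal 6 a single gene took 45.0%. The medians used for scaling were 7.17, 4.00 and 11.96 TPM in P. virginalis animals 2, 6 and 7 and 8.32, 9.33 and 18.5 TPM in P. fallax animals 1, 3 and 4. The libraries of P. virginalis animal 7 and of all P. fallax animals had longer reads than those of animals 2 and 6. Each animal gave 1 library per tissue, so that the spread between animals contains the variation of library preparation.

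The members were of moderate abundance, with mean TPM in P. virginalis muscle between 10.03 and 656 and a median of 30.6. The ratio of the highest to the lowest animal had a median of 21.6 in the members and of 2.24 in all 1067 genes. It reached 383 (95% counting interval 184 to 946) among the members with a lowest value above 0, and the lowest value was 0 in 4 further members. The threshold lay in a continuous range, since the members just inside had ratios of 10.05, 10.14 and 10.22 and the genes just outside had 9.67, 9.63 and 9.48. Between 8- and 10-fold there were 17 genes, and between 10- and 12-fold there were 11 members. Counting error was small against most of these ratios. The highest library held a median of 706 counts and the lowest a median of 26, and the lower limit of the 95% exact binomial interval was at least 10 in 41 of the 59 members and at least 5.02 in all of them. In 7 members the lowest library held 3 counts or fewer. These intervals cover counting error only.

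**Figure D1:**
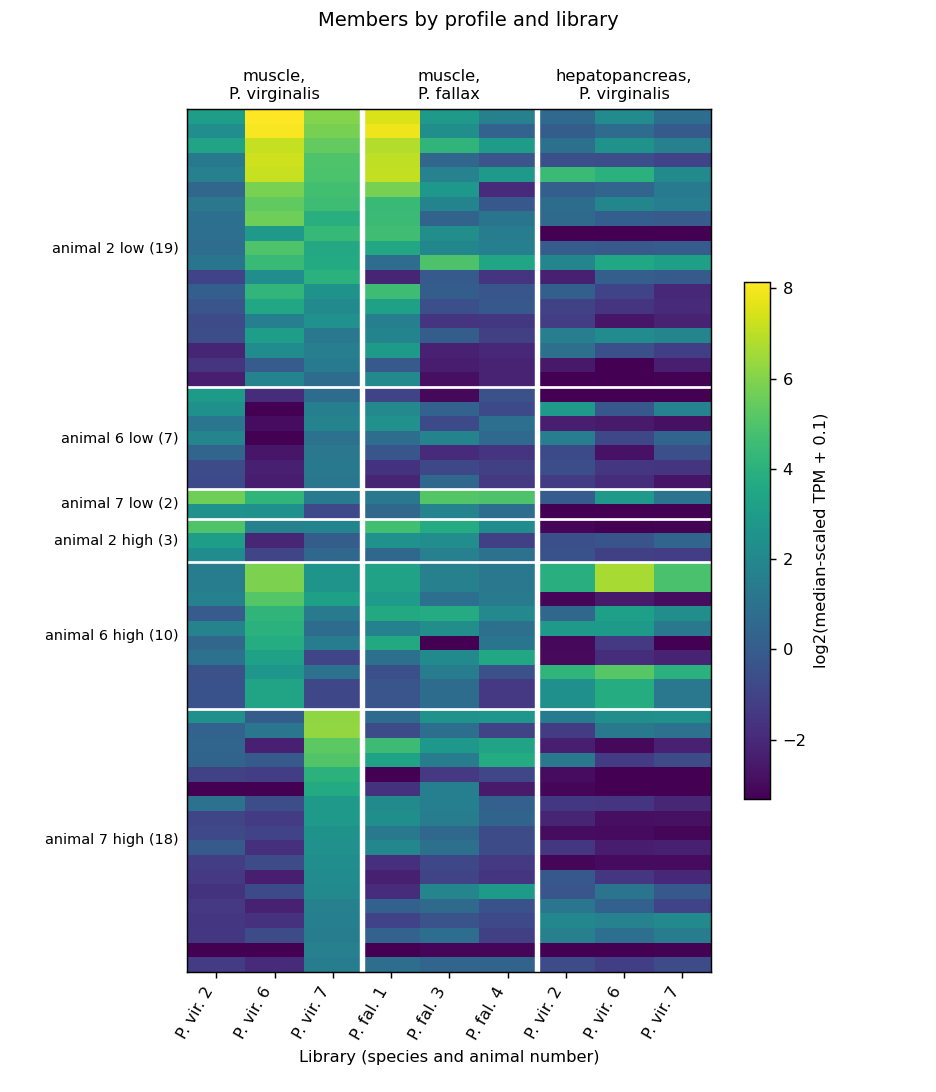
Each row is 1 of the 59 members and each column 1 of the 9 libraries, coloured by log2 of the scaled TPM plus 0.1, with rows grouped by the P. virginalis muscle that stood apart and ordered by mean TPM within a group (number of members in parentheses). In the block of 19 members low in animal 2, the column of P. fallax animal 1 is bright and those of P. fallax animals 3 and 4 are dark.

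The muscle that was highest was that of animal 7 in 26 members, of animal 6 in 25 and of animal 2 in 8. Among the other 1008 genes, animal 7 was highest in 24.4%, animal 6 in 45.3% and animal 2 in 30.3%. The lowest muscle was that of animal 2 in 29 members, of animal 6 in 22 and of animal 7 in 6, and animals 2 and 6 were both at 0 in 2 members. To describe which animal stood apart, the 3 scaled values of each member were ordered, and the animal beyond the larger of both gaps was taken. By this sorting, 19 members were low in animal 2, 18 were high in animal 7, 10 were high in animal 6, 7 were low in animal 6, 3 were high in animal 2 and 2 were low in animal 7. No animal alone supplied the set, but the members low in animal 2 and those high in animal 7 together made up most of it.

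The 19 members that were low in animal 2 and high in animals 6 and 7 were the most abundant of the set, with a median mean TPM of 94.5. Their median scaled TPM was 1.63, 21.7 and 14.7 in animals 2, 6 and 7. The P. fallax muscles, which had entered the choice only through the genes used for scaling, also separated. The median scaled TPM of these 19 members was 21.4 in P. fallax animal 1, against 1.28 in animal 3 and 0.768 in animal 4.

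The member with the clearest gap above animal 2 was maker-scaffold2721-snap-gene-0.1, a model of 447 nt. It measured 9.06 TPM in the muscle of animal 2, 228 in animal 6 and 304 in animal 7, and 461, 62.7 and 3.08 TPM in P. fallax animals 1, 3 and 4. Animals 6 and 7 and P. fallax animal 1 were high, and the values of both species overlapped. After scaling, the highest P. virginalis muscle exceeded the lowest 45.1-fold (95% counting interval 32.3 to 65.0), and the P. fallax muscles spanned 332-fold (185 to 667), from 1585 counts to 11. For snap-scaffold268079-processed-gene-0.2, animal 2 and P. fallax animals 3 and 4 were again low, with 34.8, 1060 and 661 TPM in animals 2, 6 and 7 and 1942, 47.3 and 20.3 TPM in P. fallax animals 1, 3 and 4. The P. virginalis muscles spanned 54.6-fold and the P. fallax muscles 212-fold (184 to 247), with non-whole counts that show reads shared with other gene models.

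evm-scaffold5018-processed-gene-1.0 was a low-abundance example. It measured 0.93, 18.6 and 34.8 TPM in animals 2, 6 and 7, and 62.6, 1.00 and 2.84 TPM in P. fallax animals 1, 3 and 4. Again only P. fallax animal 1 lay near animals 6 and 7, and the scaled spread was 35.8-fold between the P. virginalis muscles (20.2 to 69.7) and 70.2-fold between the P. fallax muscles (38.8 to 141). The most abundant member of the whole set, maker-C10265584-snap-gene-0.0, was picked after its values had been seen. It had 59.4, 1132 and 776 TPM in animals 2, 6 and 7, and 1482, 67.6 and 57.3 TPM in P. fallax animals 1, 3 and 4. The ratios were 34.2 (32.3 to 36.1) and 57.5 (54.2 to 61.1), and the highest library held 38910 counts of the gene.

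Over the 19 members low in animal 2, P. fallax animal 1 was the highest P. fallax muscle in 17. Among the 180 other genes with the same P. virginalis profile that were not members, it was highest in 53.9%. The P. fallax muscles differed at least 10-fold in 15 of the 19 members, against 11.7% of those 180 genes and 9.56% of all 1067 genes. The median P. fallax ratio was 19.4 in the 19 members (range 3.76 to 332) and 2.75 in the 180 other genes. P. fallax animal 1 was at least 5 times both other P. fallax muscles in 14 members, and P. fallax animals 3 and 4 both lay below P. virginalis animals 6 and 7 in 18. The count of 15 rested on a single library, because only 1 of the 19 members reached 10-fold between P. fallax animals 3 and 4. P. fallax animal 1 remained the highest in 17 members with unscaled TPM, with TMM-scaled CPM (counts relative to the library size after trimmed-mean normalization), and with posterior mean TPM.

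A fixed form of this pattern was then counted across all genes: P. virginalis animals 6 and 7 both at least 5 times animal 2, and P. fallax animal 1 at least 5 times animals 3 and 4. It was met by 12 members. Among the 5067 genes with a muscle mean of at least 1 TPM it was met by 44, of which 9 had a P. virginalis muscle mean of 1000 TPM or more and thus lay above the abundance limit of the set. The form was written after the values of the members had been seen, and its P. virginalis part uses the values that chose the members, so that the counts carry no test and no contrast with other genes.

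**Figure D2:**
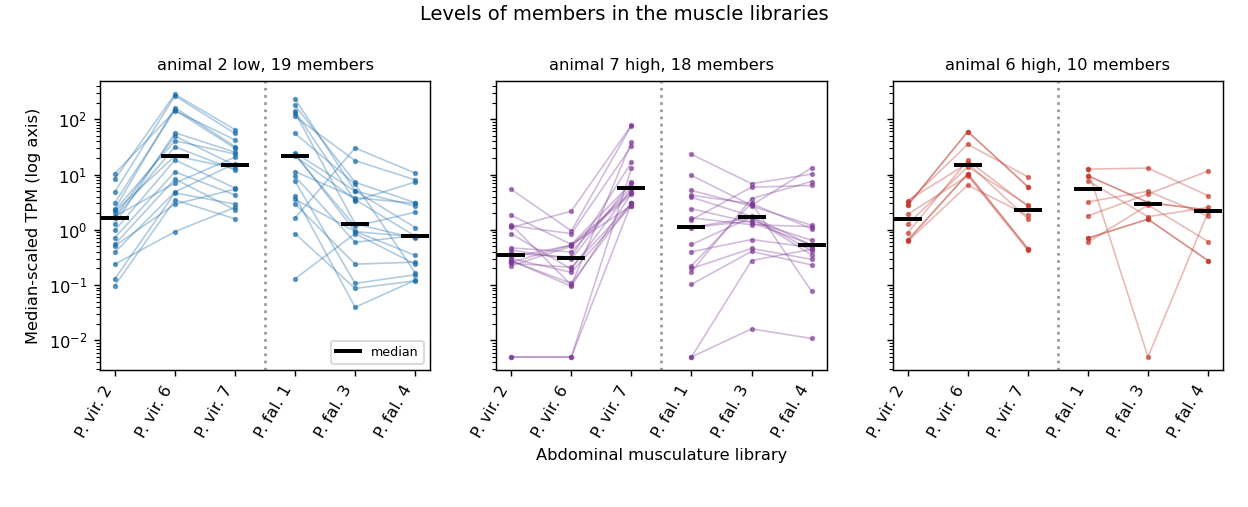
Scaled TPM on a log axis in the 6 muscle libraries for the members low in animal 2, high in animal 7 and high in animal 6, with 1 point per member and library, lines joining the points of 1 member within a species, a black bar for the median, and values of 0 drawn at 0.005. The medians of the 19 members low in animal 2 are 21.7 in animal 6 and 21.4 in P. fallax animal 1, whereas animal 7 has the highest median, 5.71, of the 6 muscles in the second panel.

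The 18 members that were high in animal 7 showed a different relation to P. fallax. Their median scaled TPM was 0.346, 0.308 and 5.71 in animals 2, 6 and 7. In P. fallax animals 1, 3 and 4 it was 1.10, 1.67 and 0.529. All 3 P. fallax muscles lay below P. virginalis animal 7 in 17 of the 18 members, while 38 of the 54 single P. fallax values lay above the middle P. virginalis animal. Among the 121 other genes with the same P. virginalis profile, the shares were 57.9% and 52.3%, and the choice of members with a far higher value in animal 7 favours P. fallax values below it. The P. fallax muscles differed at least 10-fold in 4 of these members, and the P. fallax ratio had a median of 4.13. In 2 of the 4 members the lowest P. fallax library held 0 counts and the others held few. Their lower counting limits of the P. fallax ratio were 0.18 (evm-scaffold2224-processed-gene-0.30) and 1.45 (maker-scaffold94836-snap-gene-0.0).

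The largest jump above the middle animal belonged to evm-scaffold2224-processed-gene-0.30, a model of 1293 nt. No read was counted in the muscles of animals 2 and 6, whereas the muscle of animal 7 held 284 counts, or 36.4 TPM. The P. fallax muscles held 0, 2 and 3 counts in animals 1, 3 and 4, and the hepatopancreas libraries held 0, 0 and 1. Against a floor of 3 counts per library, the scaled level in animal 7 was at least 104-fold higher than in animal 6 and at least 117-fold higher than in animal 2. A single muscle library of the 9 libraries carried nearly all of its reads.

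The second was maker-scaffold59094-snap-gene-1.15, a short model of 389 nt. It had 0 TPM in animals 2 and 6 and 155 TPM, from 226 counts, in animal 7. P. fallax animals 1, 3 and 4 had 1.85, 28.3 and 1.43 TPM. With the same floor, the level in animal 7 was 85.8-fold that of animal 6 and 93.9-fold that of animal 2, with lower counting limits of 69.2 and 75.8. P. fallax animal 3 stood apart from the other P. fallax muscles with 72 counts against 5 and 4. Its scaled ratio to the lowest was 39.2, with a counting interval of 14.7 to 148. Among the P. virginalis muscles only the animal 7 library had longer reads, but all P. fallax libraries had them as well. The part of read length in the values was not tested.

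Some of the 10 members that were high in animal 6 had short gene models, and the 10 were often more abundant in the hepatopancreas. Their lengths ran from 240 to 1965 nt. The median was 414 nt, against 1017 nt in all members and 1131 nt in the 1067 genes. Of the 10 members, 4 were under 300 nt. These are 2 pairs of models with identical values, and the median counts both models of each pair. The effective lengths by which TPM is computed differed at most 1.16-fold between the P. virginalis muscles for the members under 300 nt. The hepatopancreas mean exceeded the muscle mean in 7 of the 10 members, compared with 14 of all 59. Among the 244 other genes with the same P. virginalis profile, the hepatopancreas mean had a median of 45.8 TPM. Their median TPM in the muscles of animals 2, 6 and 7 was lower, at 22.9, 26.6 and 41.8. A higher level in the hepatopancreas was therefore not particular to these members. Of the 9 members with a hepatopancreas mean of at least 1 TPM, all 9 were also highest in the hepatopancreas of animal 6. The share among other genes of this profile was not counted. With identical models taken once, these counts were 2 of 8 under 300 nt, 5 of 8 above muscle and 7 of 7 highest in animal 6.

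Those named by the gap above the middle animal were maker-scaffold113356-exonerate_protein2genome-gene-0.1 and maker-scaffold336218-exonerate_protein2genome-gene-0.0. Both models are 258 nt long and carried identical values in every library, so that their reads could not be assigned between them and they count as a single measurement. Each had 19.9, 239 and 71.8 TPM in the muscles of animals 2, 6 and 7, and 199, 1328 and 473 TPM in the hepatopancreas of the same animals. Animal 6 was highest and animal 2 lowest in both tissues. P. fallax animals 1, 3 and 4 had 79.2, 29.1 and 42.2 TPM, within the P. virginalis range before scaling, and the scaled P. virginalis muscle ratio was 21.6 (14.4 to 34.1).

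Genes that are rich in the hepatopancreas were followed in the muscle libraries. They were chosen by their hepatopancreas level alone, without a limit in muscle. RNA made by muscle and RNA from the other tissue therefore cannot be told apart in these values. For the 142 genes with a hepatopancreas mean of at least 1000 TPM, the median scaled TPM in muscle was 6.98, 28.3 and 17.5 in animals 2, 6 and 7. In P. fallax animals 1, 3 and 4 it was 13.1, 37.4 and 26.7. Their summed TPM made up 12.8%, 15.4% and 11.2% of the P. virginalis muscle libraries and 12.1%, 21.1% and 20.4% of the P. fallax muscle libraries. Before scaling, their median TPM was 50.02, 113 and 209 in the muscles of animals 2, 6 and 7, so that animal 6 was highest after scaling and animal 7 before it. The scaled order of the P. virginalis muscles, with animal 2 lowest and animal 6 highest, was also that of the medians of the 10 members high in animal 6 and of the 19 members low in animal 2. In P. fallax, animal 1 was lowest for the hepatopancreas-rich genes and highest for both groups of members. The part of hepatopancreas RNA in the values of the members was not tested.

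In 7 members animal 6 was the muscle that stood apart by a low value, with ratios between 23.9 and 114 where the lowest value was above 0. maker-scaffold74358-snap-gene-1.27, a model of 3178 nt, had 15.3, 0.12 and 40.9 TPM in animals 2, 6 and 7, and 45.5, 4.58 and 31.5 TPM in P. fallax animals 1, 3 and 4. Animal 6 held 8 counts and lay below all 5 other muscles, giving a scaled ratio of 114 (59.6 to 274), which was 341 with unscaled TPM. evm-scaffold14490-processed-gene-0.5 had 8.87, 0.24 and 26.8 TPM in the same 3 muscles and 6.61, 0.62 and 9.81 TPM in the hepatopancreas of animals 2, 6 and 7. Animal 6 was low in both tissues, with a muscle ratio of 37.4 (25.3 to 59.6), or 112 unscaled, and a hepatopancreas ratio of 13.1 (9.70 to 18.0), and its hepatopancreas mean below 10 TPM kept it in the set. P. fallax animals 1, 3 and 4 had 6.07, 1.56 and 4.26 TPM of this gene. The median scaled TPM of the 7 members was 2.14, 0.060 and 2.24 in animals 2, 6 and 7, and the P. fallax muscles differed at least 10-fold in 3 of them.

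The remaining profiles were rare. Among the 3 members high in animal 2, maker-scaffold135472-snap-gene-0.1 had 229, 12.7 and 42.3 TPM in animals 2, 6 and 7, and 211, 124 and 84.2 TPM in P. fallax animals 1, 3 and 4. All P. fallax muscles were thus above animals 6 and 7, and the scaled ratio of 10.05 (8.77 to 11.6) placed this gene nearest to the threshold. evm-scaffold14911-processed-gene-0.0 had 61.6, 0.54 and 11.1 TPM in animals 2, 6 and 7, and 46.1, 45.3 and 6.37 TPM in P. fallax animals 1, 3 and 4. Its ratio was 63.6 with a wide counting interval (34.2 to 132), because animal 6 held only 10 counts, and the P. fallax muscles spanned 16.1-fold (12.5 to 21.1).

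Both members low in animal 7 were higher in P. fallax animals 3 and 4 than in P. fallax animal 1. maker-scaffold84943-snap-gene-0.2 had 41.7, 20.9 and 5.62 TPM in animals 2, 6 and 7, and 11.3, 32.0 and 30.6 TPM in P. fallax animals 1, 3 and 4, with a P. virginalis ratio of 12.4 (8.56 to 18.6). maker-scaffold868-snap-gene-1.2 had 349, 71.4 and 31.8 TPM in animals 2, 6 and 7, and 19.3, 317 and 575 TPM in P. fallax animals 1, 3 and 4. Here the muscle of P. fallax animal 1 and that of P. virginalis animal 7 were both low, the spread was 18.3-fold (16.7 to 20.1) between P. virginalis muscles and 14.7-fold (13.5 to 16.03) between P. fallax muscles, and the non-whole counts show shared reads.

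**Figure D3:**
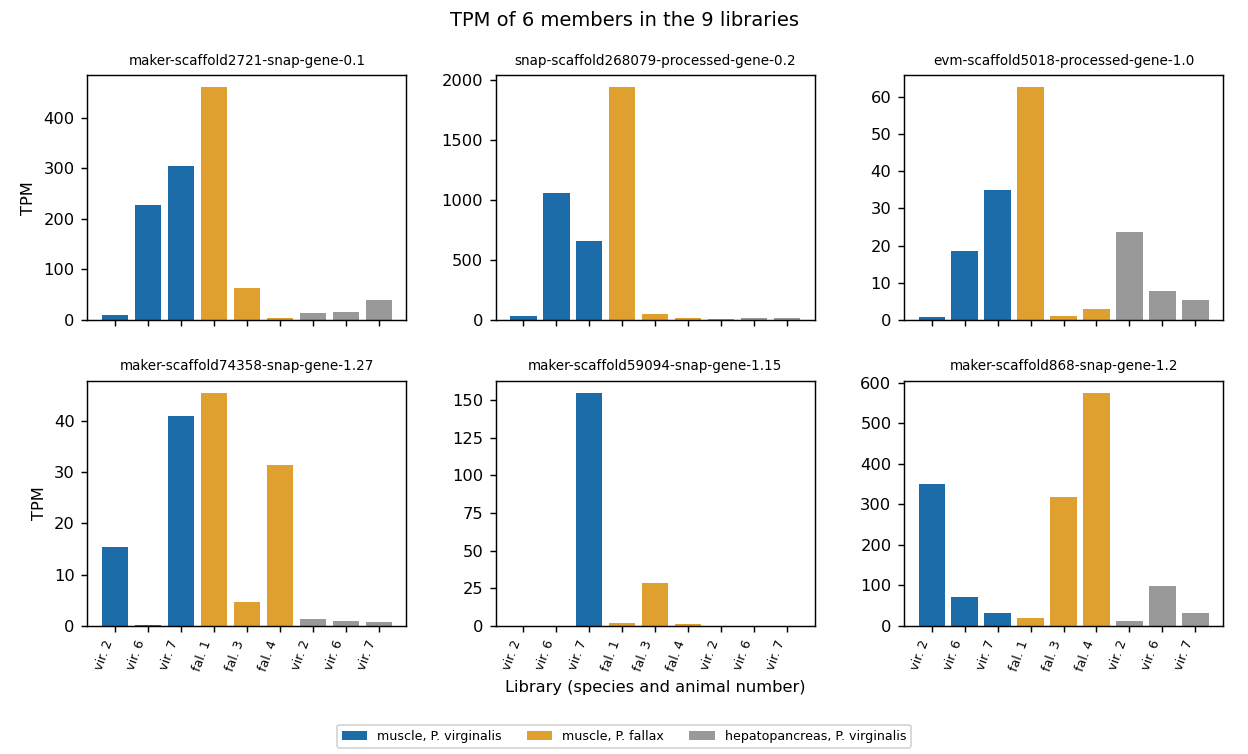
TPM in each of the 9 libraries for 6 members, with blue bars for P. virginalis muscle, orange bars for P. fallax muscle and grey bars for P. virginalis hepatopancreas, each bar being 1 animal and each axis starting at 0. In the 3 upper genes the bars of animals 6 and 7 and of P. fallax animal 1 stand above those of animal 2 and of P. fallax animals 3 and 4, whereas maker-scaffold59094-snap-gene-1.15 reaches 155 TPM in animal 7 alone.

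Whether genes that vary between clonal animals also vary between animals of the parent species was addressed with the 3 P. fallax muscles. Of the 59 members, 25 differed at least 10-fold between P. fallax animals, compared with 9.56% of the 1067 genes and 77 of the 1008 other genes. With the limits on the mean applied to P. fallax muscle itself, 9.66% of 1543 genes differed by that much. The median P. fallax ratio was 6.03 in the members and 2.47 in the others. P. fallax animal 1 was the highest muscle in 32 members, animal 3 in 21 and animal 4 in 6, whereas the shares among the other genes were 36.1%, 34.7% and 29.2%. A P. fallax range of at least 10-fold was thus found in a minority of members, and it was concentrated in those low in animal 2 (15 of the 25). Without P. fallax animal 1 the count fell from 25 to 5, without animal 3 it was 19 and without animal 4 it was 20. Some of the 25 members had few P. fallax counts, and with a P. fallax mean of at least 10 TPM the count was 21.

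**Figure D4:**
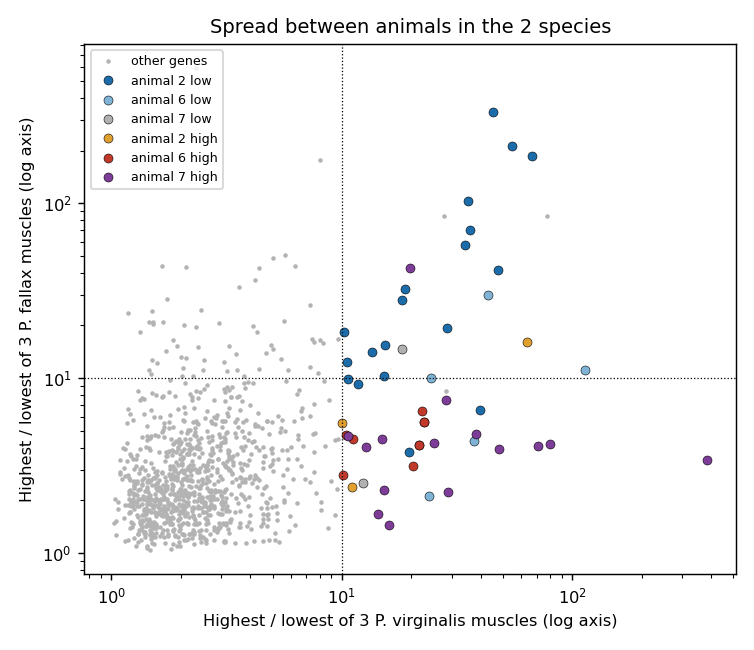
Ratio of the highest to the lowest muscle in P. virginalis and in P. fallax on log axes, with 1 point per gene, coloured circles for members and grey points for other genes within the same limits on the mean, and dotted lines at 10. The plot holds the 53 members and 991 other genes whose lowest value is above 0 in both species; grey points right of the vertical line are genes left out for varying in the hepatopancreas, and the members low in animal 2 fill the upper right corner.

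In level, the species overlapped for every member. The 3 P. virginalis values lay wholly above or below the 3 P. fallax values in 0 of the 59 members, compared with 10.3% of the 1067 genes, and a wide P. virginalis range makes such overlap more likely by construction. All 3 P. fallax values lay within the P. virginalis range in 27 members, and the P. fallax mean did so in 56. Over the 1067 genes the shares were 15.7% and 60.4%, and the rule's wide P. virginalis range favours both counts in the members. In edgeR's quasi-likelihood test of P. virginalis against P. fallax muscle (3 against 3 animals), 63 of 5053 genes were called at a Benjamini-Hochberg adjusted p under 0.05, a share of 1.25% (0.97% higher in P. virginalis and 0.277% lower, or 1.82% and 0.0% of the 1044 tested genes within the same limits on the mean). Of the 53 members tested, 0 were called and 6 had an unadjusted p under 0.05, where the unadjusted share of all genes was 7.5%. DESeq2 called 1 member, where it called 111 of all 5053 genes. Limma on log2(TPM + 1) called 0 members, where it called 25 of 5067 genes. The median log2 difference of the 53 members, P. virginalis minus P. fallax, was 0.50 and that of all genes was -0.01. The choice of the members by their P. virginalis values bears on this difference. Without the muscle of animal 2, edgeR called 2 of 58 members and 62 of 5580 genes. Without the filter on low counts it called 10 of 59 members and 307 of 12353 genes.

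The hepatopancreas of the same animals showed how far a muscle difference was shared by another tissue. The mean hepatopancreas level was below 1 TPM in 14 of the 59 members and at least 10 TPM in 29, compared with 8.63% and 79.2% of the other genes. Of the 45 members with at least 1 TPM, the highest animal was the same in both tissues in 22 and the lowest in 23. The corresponding shares in the other genes were 40.8% and 35.3%. Agreement was uneven between profiles: the highest animal was shared in 9 of 9 members (7 of 7 distinct) high in animal 6, in 6 of 16 low in animal 2 and in 3 of 12 high in animal 7. The shares among other genes of each profile were not counted. Across all genes that passed the count filter, deviations from the tissue means correlated with r = 0.26 in animal 6 and -0.07 in animals 2 and 7. The unevenness is therefore not shown to be particular to the members. With animal 2 left out, the order of animals 6 and 7 alone was the same in both tissues in 34 of the 45 members and in 61.5% of the other genes. With animal 7 left out, the order was the same in 33 of the 45 and in 57.5% of the other genes. With animal 6 left out, these values were 23 of the 45 and 42.6%. Such counts cannot be set beside the 22 because only 2 animals are ordered. The rule itself removed 5 genes that varied in the hepatopancreas, so that members with a wide spread in both tissues are under-represented.

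**Figure D5:**
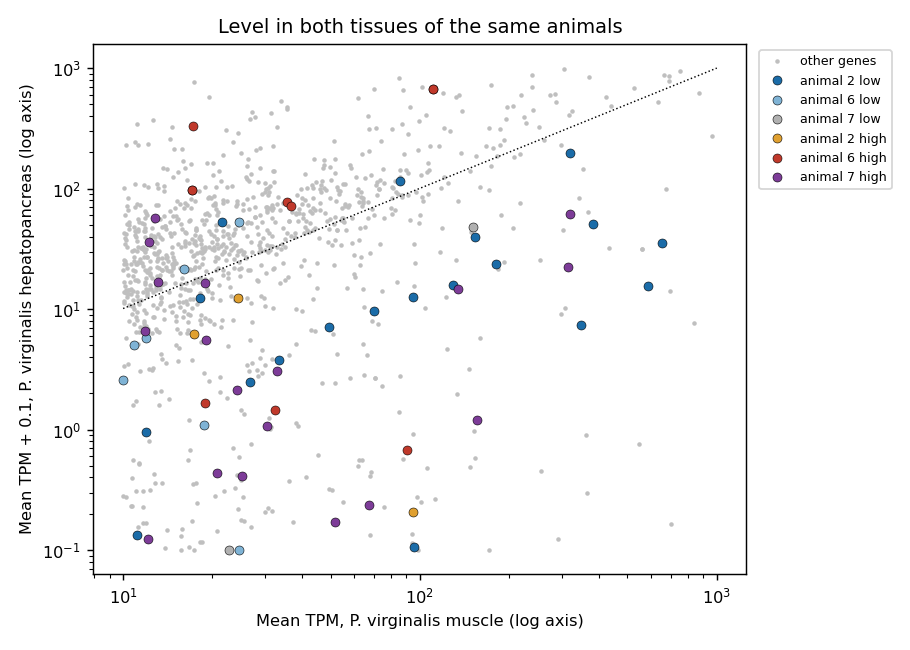
Mean TPM over 3 P. virginalis muscles against mean TPM plus 0.1 over the hepatopancreas of the same animals, on log axes, with coloured circles for the 59 members, grey points for the other 1008 genes and a dotted line of equal level. Most members lie below the line, and 7 of the 10 members high in animal 6 lie above it.

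The tissue comparison found most tested members at a higher level in muscle. Of 6770 genes tested with edgeR, 38.4% were called between hepatopancreas and muscle of P. virginalis, 24.5% as higher in the hepatopancreas and 13.9% as lower. Of the 55 members tested, 32 were lower in the hepatopancreas and 1 was higher. Among the 1058 tested genes within the same limits on the mean, 38.1% were lower and 4.35% higher, and the floor of 10 TPM in muscle favours calls in this direction. With the animal as a block, 30 of 55 members were lower and 2 higher, against 815 and 1527 of all 6770 genes. With limma on log2(TPM + 1), 18 of 59 members were lower and 7 higher. That fit called 355 of 6818 genes lower and 3225 higher, so that its counts are not to be read against the edgeR shares. Library size alone as scaling moved the median log2 difference of all genes from 0.17 to 1.48. Then 28 members were lower and 3 higher, against 374 and 2596 of all 6770 genes.

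The members with the largest fitted difference were nearly silent in the digestive gland. maker-scaffold84943-snap-gene-0.2 had 0 counts in all 3 hepatopancreas libraries (edgeR adjusted p = 0.0001977), and its muscle values are given above. snap-scaffold30747-processed-gene-0.7 had 12.5, 27.99 and 245 TPM in the muscles of animals 2, 6 and 7 and 206, 46.9 and 49.6 TPM in P. fallax animals 1, 3 and 4, but a single count in the 3 hepatopancreas libraries (adjusted p = 3.859e-05). No fold is given for either gene, since its size would depend on the prior count of the fit. The exception was maker-scaffold13204-snap-gene-0.36, with 4.43, 25.7 and 21.7 TPM in muscle and 243, 485 and 260 TPM in the hepatopancreas of animals 2, 6 and 7. All hepatopancreas values lay above all muscle values, and the log2 difference was 2.52 (SE 0.80, edgeR adjusted p = 0.02872). This call was lost without the hepatopancreas of animal 6 or without the muscle of animal 2, when no member was called higher.

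In sequence context, the members lay on 57 scaffolds, of which 2 carried 2 members each. On scaffold15282 both models had identical values. The paper describes the reference genome as highly fragmented, and the scaffolds of the other genes were not counted. The number of scaffolds therefore does not show how the members are spread in the genome. All 59 were models with a single transcript. Model lengths ran from 210 to 5013 nt with a median of 1017 nt, and 7 members were under 300 nt. By the prefix of their IDs, 24 were maker-snap models, 19 evm, 6 snap, 6 masked snap and 4 protein-alignment models. The 4 protein-alignment models formed 2 pairs with identical values, so that the set held 57 distinct profiles, and all 4 were high in animal 6. In 18 members some muscle library had a non-whole count, which arises when reads are divided between similar gene models, and 7 of these 18 were among the 10 members high in animal 6.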

How the data were processed

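The 9 libraries of total RNA (TruSeq) comprised both tissues of P. virginalis animals 2, 6 and 7 and the muscle of P. fallax animals 1, 3 and 4. The authors deposited 1 RSEM gene table per library with expected counts (not whole where reads are shared), TPM, posterior mean TPM and gene lengths. The submitters' processing notes name HISAT2 2.0.4 and RSEM 1.2.30. Genome build, gene model release, trimming and strandedness: not given in the sources used here. Next, the authors' TPM values were divided by the library median over genes with at least 1 TPM in all 6 muscle libraries. The rule for the members is given with the results. The members and all lists were chosen with earlier results of these data known.

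Ratios carry 95% exact (Clopper-Pearson) binomial intervals from the deposited expected counts of both libraries. A lowest value of 0 was replaced by a floor of 3 counts in that library. Species and tissues were compared with edgeR 4.0.16 (R 4.3.3) on expected counts rounded to whole numbers, with TMM factors, filterByExpr, glmQLFit and glmQLFTest and Benjamini-Hochberg adjustment over all genes tested. The threshold was 0.05. The p-values measure the spread between single animals. DESeq2 1.42.0 and limma 3.58.1 on log2(TPM + 1) and log2(TPM + 0.1) were alternatives, and other scalings, filters, thresholds and each left-out library were also tried. Named members followed a rule: for each P. virginalis animal, the 2 members highest there with the largest lower counting limit of highest over middle animal and the 2 lowest there with the largest lower limit of middle over lowest; in each comparison, the 2 called members with the largest rise and fall; and the 2 with the largest lower limit of the P. fallax ratio. maker-C10265584-snap-gene-0.0 was added after its values were seen.

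The sample titles give the same animal numbers to both tissues, which pairs them. The deviations from the tissue means correlated across genes with r = -0.07, 0.26 and -0.07 for the same animal (2, 6 and 7) and from -0.24 to 0.23 for different animals. Python 3.11.15, NumPy 2.4.6, SciPy 1.17.1 and pandas 2.3.3 were used.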

Additional observations from a re-analysis of the deposited data

How the results depend on the processing

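The number of members depended on the thresholds and on scaling. It was 99 with unscaled TPM (48 shared with the 59), 139 at 5-fold, 34 at 20-fold, 97 with a mean TPM floor of 5 and 39 with a floor of 20. It lay within 1.5 times of 59 with TMM-scaled CPM (57, of which 56 shared), posterior mean TPM (59, 55 shared) and scaling over genes of at least 10 TPM (67, 53 shared), and was 41 when the lower counting limit had to reach 10. Leaving out P. virginalis animal 2, 6 or 7 gave 26, 27 and 33. The unscaled ratio of several named members moved beyond its counting interval, for example from 12.4 to 7.42 for maker-scaffold84943-snap-gene-0.2 and from 10.4 to 5.79 for maker-scaffold13204-snap-gene-0.36, which fell below 10, and from 114 to 341 for maker-scaffold74358-snap-gene-1.27 and from 37.4 to 112 for evm-scaffold14490-processed-gene-0.5. The cause of such shifts was not tested beyond the scaling itself.

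The count of 25 members with a 10-fold P. fallax range ran from 5 to 20 with 1 P. fallax library left out, lowest without animal 1. Among the members low in animal 2 it ran from 1 to 14, an alternative chosen after seeing the data. With 1 animal left out, the order of the remaining animals was the same in both tissues in 23 to 34 members. These values give no range for the count of 22 members with the same highest animal, because fewer animals are ordered.

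In the species comparison, edgeR called 63 of 5053 genes, DESeq2 111 of 5053 and limma on log2(TPM + 1) 25 of 5067. Without the filter on low counts, 307 of 12353 genes were called. With library sizes alone 72 of 5053 were called, and 35 to 85 genes with 1 library left out. Members called numbered 0 of 53 in edgeR, 1 of 53 in DESeq2 and 1 of 53 with library sizes alone. They numbered 10 of 59 without the filter and 0 to 2 with 1 library left out.

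In the tissue comparison, members called higher in the hepatopancreas numbered 1, and 3 with library sizes alone, 7 and 6 with limma on log2(TPM + 1) and log2(TPM + 0.1), 2 without the filter, 2 with the animal as replicate block and 0 to 5 with 1 library left out. Members called lower numbered 32, and 18 with either limma fit, 30 with the block and 28 to 37 with 1 library left out. Over all genes, edgeR called 1660 of 6770 higher and 939 lower. Limma on log2(TPM + 1) called 3225 of 6818 higher and 355 lower, and on log2(TPM + 0.1) 3156 and 350. All members called ranged from 30 to 42 and all genes called from 2140 to 2588 with 1 library left out, against 33 and 2599. The pairing by animal left 2342 genes called and, besides the members called higher, moved no count by over 1.5 times. Members with few counts limit the depth: 7 had 3 counts or fewer in their lowest library.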
